A study of Mus musculus with 22 samples.

Results

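Chemokines are small secreted proteins that guide leukocytes along concentration gradients by binding G protein-coupled receptors, and fibroblasts are among the stromal cells that release them. The genes described here were named as chemokines made by fibroblasts: Ccl2, Ccl7, Ccl8, Ccl9, Cxcl1, Cxcl5 and Cxcl12. The list was drawn up knowing that Ccl8 separates both Denr shRNAs, so the genes were chosen by readouts that include the RPKM of Ccl8 in the Denr shRNA lysates, and differences between those shRNAs are given below without a test. Of the 7 genes, 6 are among the 10516 genes of the files, and Cxcl12 was not analysed here.

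The measurements were ribosome profiling (RPF-seq, sequencing of mRNA fragments protected by ribosomes) and parallel RNA-seq of NIH3T3 cells, a mouse embryonic fibroblast line. All cells were lentivirally transduced with a pLKO.1puro shRNA vector, selected with puromycin and treated briefly with cycloheximide, which stalls elongating ribosomes, before lysis. Denr shRNA1 and Denr shRNA2 target the mRNA of DENR. The controls carried a scramble shRNA with no intended target or an shRNA against Gfp, a gene that these cells do not have. The 11 lysates comprise triplicates of Denr shRNA1, Denr shRNA2 and the scramble control and a duplicate of the Gfp control. Every lysate came from 1 dish and gave 1 RNA-seq and 1 RPF-seq library. The sources used here do not state whether each dish was transduced separately, so p-values measure the spread between dishes. No untransduced cells were among the 22 libraries, and all lysates share the vector, the selection and the cycloheximide.

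DENR acts with MCTS1 on ribosomes that have finished a short upstream reading frame and helps them to start again at the main coding sequence (CDS). The question put to each chemokine was therefore whether its RNA, its CDS footprints, or the footprints per RNA differed between the 4 shRNAs. Values are RPKM, reads on the CDS relative to the CDS length and to a library size that the authors normalized by the upper quartile. Denr RNA was 40.5 ± 5.32 RPKM with shRNA1 and 17.9 ± 2.70 with shRNA2 (SD, n = 3 each), against 188 ± 2.45 with scramble (n = 3) and 169 ± 6.32 with Gfp shRNA (n = 2). The reads recovered from the RPKM steps totalled 8514080 to 20109699 per RNA-seq library and 10927303 to 21649878 per RPF-seq library. The RPF-seq library of scramble replicate 3 stands apart in its low 5′ UTR values, with 143 genes at 1 read where the other 10 RPF-seq libraries have 423 to 557. It has 290 genes at 2 reads, while each of the others has fewer genes at 2 reads than at 1. The RNA-seq library of the same lysate is the shallowest. Calls that change without this lysate are named where they are given.

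Ccl2, Ccl7 and Ccl8 encode members of the family named monocyte chemoattractant proteins. Ccl9 encodes a CC chemokine that acts on myeloid cells through CCR1, and Cxcl1 and Cxcl5 encode neutrophil attractants that share the receptor CXCR2. The genes lie in 2 clusters of the mouse genome (GRCm38, GENCODE vM21). On chromosome 11, Ccl2 (chr11:82035571-82037453), Ccl7 (chr11:82045712-82047525) and Ccl8 (chr11:82115185-82116799) follow each other on the plus strand. Ccl9 lies 1456.1 kb beyond Ccl8 on the minus strand (chr11:83572919-83578636), 9.2 kb from Ccl6. On chromosome 5, Cxcl5 (chr5:90759360-90761624) lies 6.9 kb from Ppbp, and Cxcl1 (chr5:90891241-90893115) lies 121.2 kb beyond Ppbp, all on the plus strand. Ccl2, Ccl7 and Ccl8 have 3 exons and the other members have 4, and each has a single protein-coding transcript in the annotation. The files list them as ENSMUSG00000035385 (Ccl2), ENSMUSG00000035373 (Ccl7), ENSMUSG00000009185 (Ccl8), ENSMUSG00000019122 (Ccl9), ENSMUSG00000029380 (Cxcl1) and ENSMUSG00000029371 (Cxcl5).

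Because the files separate CDS from 5′ UTR, the sequence around each main start codon is shown first, 12 bases before it to 3 after it, with the start codon in capitals. All are 5′ to 3′ on the gene's strand and lie in exon 1, and the coordinates below them are those of the start codon.
Ccl2: tcctccaccaccATGcag
Ccl7: tctttctccaccATGagg
Ccl8: tttgccttcaacATGaag
Ccl9: cccactaagaagATGaag
Cxcl1: caacacagcaccATGatc
Cxcl5: atcttgtccacaATGagc
The start codons lie at chr11:82035662-82035664 (Ccl2), chr11:82045784-82045786 (Ccl7), chr11:82115237-82115239 (Ccl8), chr11:83578462-83578464 (Ccl9, minus strand), chr5:90891311-90891313 (Cxcl1) and chr5:90759443-90759445 (Cxcl5). All 6 carry an A at the base 3 before the start codon, a base that is part of the Kozak context.

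Re-initiation follows the translation of an upstream reading frame, so the 5′ UTRs were searched for ATG on the gene's strand. Only Ccl9 had any among the 6 members, 4 in its 172-base 5′ UTR, against 5260 of 10474 genes (50.2%) in all. The paper also counted upstream frames that begin with CUG, GUG or UUG, and these were not searched for here. The 5′ UTRs of the other members are short, at 91 bases (Ccl2), 72 (Ccl7), 52 (Ccl8), 70 (Cxcl1) and 65 (Cxcl5), where the median over genes is 179. The Ccl9 sites are shown with the upstream ATG in capitals and 9 bases on either side.
Ccl9 upstream site at base 32: agaactagcATGttgggtgtt
Ccl9 upstream site at base 44: ttgggtgttATGtagtcaaag
Ccl9 upstream site at base 65: gagggcattATGagctgtacc
Ccl9 upstream site at base 101: tcctcttacATGtataaatag
They lie in exon 1 on the minus strand at chr11:83578594-83578614, chr11:83578582-83578602, chr11:83578561-83578581 and chr11:83578525-83578545, and the windows of the 2 sites nearest the 5′ end overlap. Each is followed by a stop codon within the 5′ UTR, giving reading frames of 18, 6, 27 and 12 bases with their stop, all in the frame of the main CDS.

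The promoters of Ccl8, Ccl9 and Cxcl1 were in the RefSeq promoter windows used here (GRCm38.p6, 250 bases before to 50 after the start site), 3 of the 6 members. They were searched on both strands for TATAAA, the core of the TATA box, and for GGANTTTCC, a form of the NF-κB site (N, any base). For each promoter 1 match is shown with the motif in capitals as an example of its sequence.
Ccl8 promoter: ctgctcccTATAAAaggcagat
Ccl9 promoter: atgaatttTATAAAaggagaaa
Cxcl1 promoter: gtactccgGGAATTTCCctggcccg
The Ccl8 match begins 32 bases before the RefSeq start site (chr11:82115145-82115166), the Ccl9 match 92 bases before it (chr11:83578715-83578736) and the Cxcl1 match 70 bases before it (chr5:90891167-90891191). Ccl9 also holds TATAAA on the opposite strand at 94 and 224 bases before the start, the nearer of which overlaps the match shown. TATAAA occurs in 13.6% of the 32851 promoters of this length and GGANTTTCC in 1.25%, and a match is a description of the sequence and no evidence of binding.

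The members span a wide range of expression. Ccl2 had a mean RNA level of 482 RPKM over the 11 lysates, above 97.2% of the genes, and Ccl7 had 238 RPKM (percentile 93.4). Ccl9 followed at 84.8 RPKM (78.6), then Cxcl5 at 16.4 (34.7), Ccl8 at 15.4 (33.0) and Cxcl1 at 5.51 (13.6). Footprint levels had a similar order, 859 RPKM for Ccl2, 542.5 for Ccl7, 132 for Ccl9, 40.0 for Ccl8, 25.8 for Cxcl5 and 5.79 for Cxcl1. The reads behind each value set its precision. Ccl2 had at least 2034 RNA reads in every lysate, while Ccl8 had 13 to 149 RNA reads and 36 to 330 footprint reads, and Cxcl1 9 to 61 and 4 to 82. None of the 26-base stretches of the 6 coding sequences occurs in a transcript of another gene, so reads of the shortest footprint length that match exactly fall on 1 gene.

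**Figure D1:**
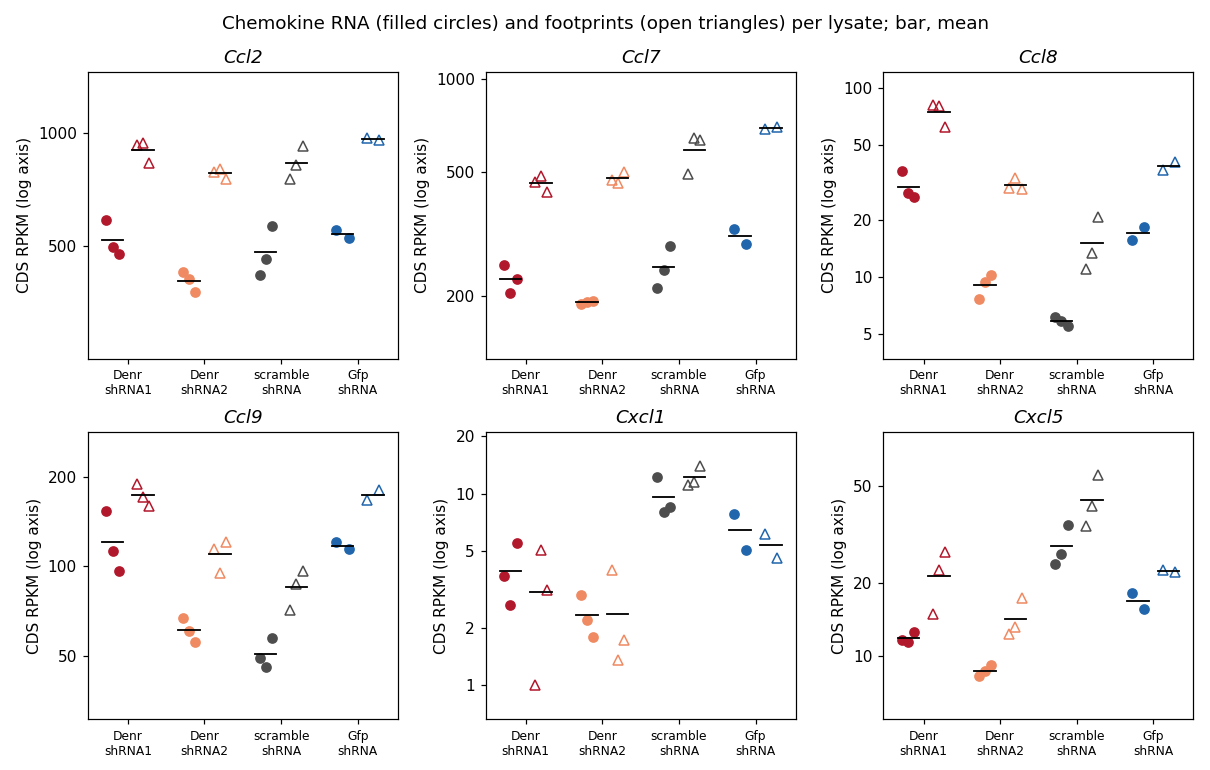
CDS RPKM of the 6 chemokines in each of the 11 lysates on a log axis, by shRNA, with RNA as filled circles, footprints as open triangles and the group mean as a bar. The 4 groups of Ccl8 do not overlap in either assay, with shRNA1 highest (RNA mean 30.1 RPKM) and scramble lowest (5.83), and Ccl2 differs least between groups.

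Ccl8 differed most between the shRNAs in RNA. Its RNA was 36.2, 27.7 and 26.4 RPKM in the Denr shRNA1 lysates and 7.65, 9.43 and 10.2 in the Denr shRNA2 lysates. In the controls it was 6.13, 5.84 and 5.53 RPKM with scramble and 15.7 and 18.5 with Gfp shRNA. The lysates of the 4 shRNAs fell in the order shRNA1, Gfp, shRNA2, scramble with no overlap between neighbours, so both Denr shRNAs lay on either side of the Gfp control.

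Ccl8 footprints gave the same order. They were 81.4, 80.9 and 62.3 RPKM with shRNA1 and 29.6, 33.7 and 29.3 with shRNA2. Scramble lysates held 10.97, 13.5 and 20.8 RPKM and Gfp lysates 37.0 and 40.6. The highest scramble value is that of replicate 3, and no groups overlapped. The ratio of the group means of shRNA1 to shRNA2 was 3.31 for RNA and 2.43 for footprints, the contrast that chose the list. Relative to scramble, shRNA1 was 5.17-fold higher in RNA and 4.96-fold in footprints, but relative to Gfp the ratios were 1.76 and 1.93. For shRNA2 the ratio was 1.56 (RNA) and 2.05 (footprints) to scramble, and 0.532 and 0.796 to Gfp. In these comparisons of group means the direction for shRNA2 therefore depended on the control chosen.

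Ccl9 followed a similar pattern at a higher level. Its RNA was 154, 112 and 96.7 RPKM with shRNA1, 66.7, 60.6 and 55.7 with shRNA2, 48.9, 45.9 and 57.1 with scramble, and 120 and 114 with Gfp. The shRNA1 and Gfp lysates overlapped, as did those of shRNA2 and scramble, and the former pair lay above the latter in every lysate. Footprints repeated this, at 188, 171 and 160 RPKM (shRNA1), 114, 94.5 and 120 (shRNA2), 71.2, 86.8 and 96.4 (scramble), and 167 and 181 (Gfp). Mean Ccl9 RNA with shRNA1 was 2.39-fold that with scramble but 1.03-fold that with Gfp.

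Cxcl5, a neutrophil attractant, showed another order. Its RNA was 11.6, 11.4 and 12.5 RPKM with shRNA1 and 8.21, 8.66 and 9.12 with shRNA2. The scramble lysates held 23.8, 26.4 and 34.7 RPKM and the Gfp lysates 18.2 and 15.5. The order scramble, Gfp, shRNA1, shRNA2 had no overlap between neighbours. For footprints the values were 14.9, 22.6 and 26.8 RPKM (shRNA1), 12.2, 13.1 and 17.3 (shRNA2), 34.3, 41.6 and 55.9 (scramble), and 22.5 and 22.1 (Gfp). Here the Gfp lysates lay within the range of shRNA1, which also overlapped that of shRNA2, while scramble lay above all others.

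Cxcl1, which acts on the same receptor, was the lowest member. Its RNA was 3.74, 2.63 and 5.53 RPKM with shRNA1, 2.97, 2.199 and 1.79 with shRNA2, 12.2, 8.02 and 8.59 with scramble, and 7.83 and 5.10 with Gfp. The scramble lysates were the highest, and the Gfp lysate at 5.10 RPKM lay below the highest shRNA1 lysate. Footprints were 0.997, 5.06 and 3.16 RPKM (shRNA1), 4.02, 1.36 and 1.71 (shRNA2), 11.1, 11.5 and 14.0 (scramble), and 6.20 and 4.61 (Gfp). Both Denr shRNAs overlapped, and scramble again lay above all other lysates.

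Ccl2 and Ccl7, the most abundant members, varied least. Ccl2 RNA was 521 ± 58.9 RPKM with shRNA1, 405 ± 25.6 with shRNA2, 483.5 ± 75.4 with scramble (SD, n = 3 each) and 539 ± 17.4 with Gfp (n = 2). Its single lysates ranged from 378 to 587 RPKM, and neighbouring groups overlapped. Ccl7 RNA was 227 ± 23.5, 191 ± 2.42, 248 ± 38.6 and 310 ± 23.8 RPKM in the same order of shRNAs. Ccl7 footprints were 464, 485 and 430 RPKM with shRNA1, 472, 461 and 499 with shRNA2, 491, 644 and 634 with scramble, and 687 and 700 with Gfp. All control lysates but scramble replicate 1 lay above every Denr shRNA lysate.

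The study's main comparison sets the 6 Denr shRNA lysates against the 5 controls and asks which genes respond to loss of DENR. Cxcl5 and Cxcl1 RNA fell, by 1.17 (SE 0.184, adjusted p = 0.00727) and 1.42 (SE 0.261, adjusted p = 0.0149) on the log2(RPKM + 0.1) scale, on which the changes of low genes are understated (limma, Benjamini-Hochberg over all genes, threshold 0.1). As ratios of group means, controls were 2.32-fold (Cxcl5) and 2.66-fold (Cxcl1) higher. Thus 2 of 6 members passed, where 3.55% of the 10516 genes did. Cxcl5 was the only member whose knockdown and control lysates did not overlap in RNA, as was the case for 3.67% of genes. Ccl7 RNA differed by -0.38 (SE 0.113, adjusted p = 0.115), which passed without shRNA1 replicate 1 (adjusted p = 0.0535) or scramble replicate 1 (0.0731). Ccl8 (0.87, SE 0.451), Ccl9 (0.27, SE 0.310) and Ccl2 (-0.13, SE 0.115) did not pass, with adjusted p of 0.370, 0.717 and 0.613 by limma.

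In CDS footprints 4 of 6 members passed, where 10.0% of the genes did. Of these, 3 were lower, and the 1 that was higher was Ccl8, whose levels chose the list. Cxcl1 footprints fell by 1.87 (SE 0.394, adjusted p = 0.0202), those of Cxcl5 by 0.95 (SE 0.251, adjusted p = 0.0468) and those of Ccl7 by 0.42 (SE 0.0833, adjusted p = 0.0156). Ccl8 footprints were higher by 1.15 (SE 0.377, adjusted p = 0.0955 by limma), a value that includes the lysates whose Ccl8 levels chose the list and is no independent support. The Ccl8 call was lost without any 1 of the 3 shRNA1 lysates, any 1 of the 3 scramble lysates or shRNA2 replicate 2, with adjusted p from 0.113 to 0.221. It was also lost in limma when eBayes was run without trend (adjusted p = 0.126). The Cxcl5 call was lost without scramble replicate 1 (0.103) or 2 (0.119). Ccl9 (0.29, adjusted p = 0.495) and Ccl2 (-0.07, adjusted p = 0.636) did not pass. In bulk lysates, fewer cells expressing a gene and less RNA per cell cannot be told apart.

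Against the Gfp lysates alone, an alternative chosen after seeing the data, 1 of these 6 calls was made. There 0 of 6 members passed in RNA (3 at an unadjusted p under 0.05, 0 with voom), and Cxcl1 was -1.08 (adjusted p = 0.568), Cxcl5 -0.73 (0.269), Ccl8 -0.05 (0.999) and Ccl9 -0.46 (0.999). In footprints Ccl7 alone passed (-0.57, adjusted p = 0.0107), and Ccl8 was 0.30 (0.856), Cxcl5 -0.38 (0.653) and Cxcl1 -1.17 (0.442) by limma. Against the scramble lysates alone, Ccl9 passed in footprints (0.70, adjusted p = 0.0334), and the Ccl8 values were 1.48 in RNA and 1.71 in footprints. The fit with Gfp alone has 2 control lysates, and over all genes it called 18 RNAs where the pooled controls gave 373. Whether the lower number of lysates or the control itself matters more for the members' calls was not tested.

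Set against the same 5 control lysates, each Denr shRNA has its own values, and since both comparisons share those controls they are not independent. With shRNA1, 3 of the 5 members tested passed in RNA, where 6.13% of all genes did, and with shRNA2 3 of 5, where 6.51% did. Cxcl5 RNA fell by 0.94 (SE 0.119, adjusted p = 0.00264) with shRNA1 and fell by 1.39 (SE 0.119, adjusted p = 0.000304) with shRNA2. Cxcl1 RNA fell by 1.06 (SE 0.251, adjusted p = 0.0433) and fell by 1.78 (SE 0.251, adjusted p = 0.00506). The shRNA1 call of Cxcl1 was lost without shRNA1 replicate 2 (adjusted p = 0.166) or scramble replicate 1 (0.112).

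Ccl9 RNA rose by 0.75 (SE 0.137, adjusted p = 0.0138) with shRNA1, and with shRNA2 the difference was -0.22 (SE 0.137, adjusted p = 0.449). Both values moved with the control. Against scramble alone shRNA1 was 1.23 higher (adjusted p = 0.00371) and shRNA2 0.27 higher (0.366), while against Gfp alone shRNA1 was 0.02 higher (1) and shRNA2 passed at -0.95 (0.0997). Ccl7 RNA fell by 0.50 with shRNA2 (SE 0.105, adjusted p = 0.0278), a call lost without shRNA2 replicate 2 (0.138) or 3 (0.133), and the difference with shRNA1 was -0.26 (SE 0.105, adjusted p = 0.221 by limma). Ccl2 RNA differed by 0.04 with shRNA1 and -0.31 with shRNA2 (adjusted p = 0.864 and 0.152). The latter passed without shRNA1 replicate 1, a lysate that enters only through the shared spread (adjusted p = 0.0764). For Ccl8, which is given no test here, the log2 differences from the controls were 1.72 with shRNA1 and 0.01 with shRNA2.

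Footprints gave calls for 4 of 5 tested members with shRNA1 and 3 of 5 with shRNA2, where 17.7% and 19.9% of all genes passed. Cxcl1 footprints fell by 1.74 and 2.00 (adjusted p = 0.0204 and 0.0114), Cxcl5 footprints by 0.67 and 1.23 (0.0419 and 0.00217) and Ccl7 footprints by 0.45 and 0.39 (0.00608 and 0.0131) with shRNA1 and shRNA2. Without shRNA1 replicate 1 the Cxcl1 value with shRNA1 was -1.11 (adjusted p = 0.0673). The Cxcl5 call with shRNA1 was lost without shRNA1 replicate 1 (adjusted p = 0.168), scramble replicate 2 (0.114) or scramble replicate 3 (0.115). Ccl9 footprints rose by 0.62 with shRNA1 (SE 0.104, adjusted p = 0.0027) and differed by -0.04 with shRNA2 (adjusted p = 0.824). Against Gfp alone the shRNA1 value of Ccl9 was -0.01 (adjusted p = 0.983), and with shRNA2 it fell by 0.67 (adjusted p = 0.00997). Ccl2 footprints differed by 0.03 and -0.17 (adjusted p = 0.826 and 0.146), the latter passing without scramble replicate 1 (0.0554). Ccl8 differed by 1.78 and 0.51, without a test.

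**Figure D2:**
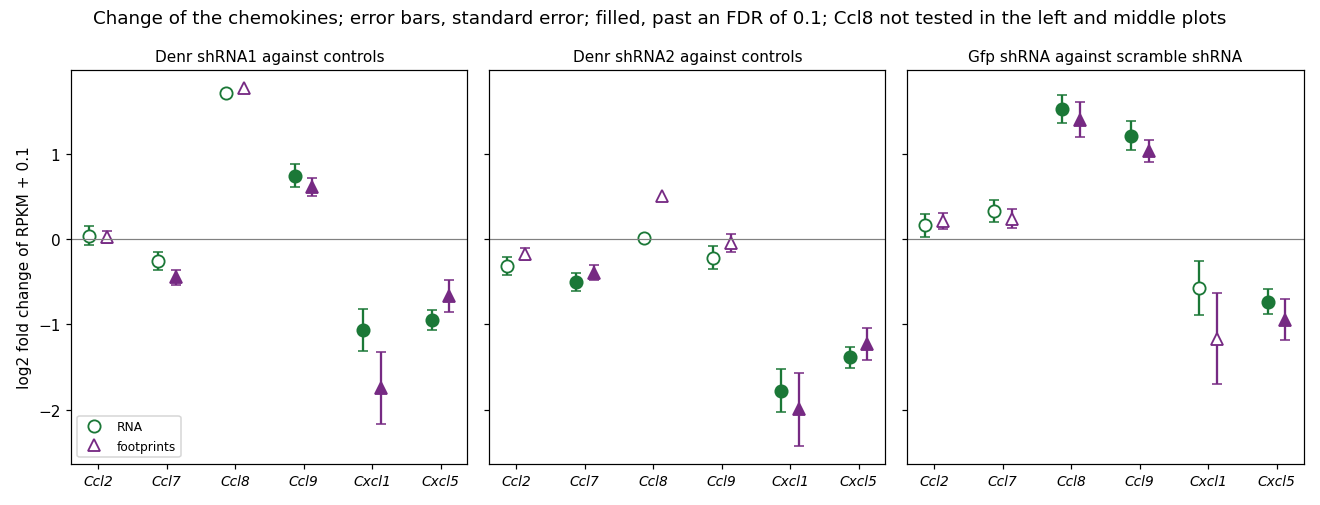
Log2 fold changes of RPKM + 0.1 for the 6 chemokines in RNA (circles) and footprints (triangles), with standard errors, for each Denr shRNA against the pooled controls and for Gfp against scramble shRNA. Filled symbols are past an FDR of 0.1, and the untested Ccl8 values with the Denr shRNAs have no error bar. Ccl8 and Ccl9 lie above 0 for shRNA1 (RNA 1.72 and 0.75) and for Gfp (1.53 and 1.22), and Cxcl5 lies below 0 in all 3 plots.

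The direct difference between the Denr shRNAs, given as a description, was largest for Ccl8, with shRNA2 minus shRNA1 at -1.71 log2 units in RNA and -1.27 in footprints. Ccl9 followed with -0.96 and -0.66, Cxcl1 with -0.71 and -0.25, and Cxcl5 with -0.44 and -0.56. For Ccl2 the values were -0.36 and -0.20, and for Ccl7 -0.24 and 0.06. In RNA the lysates of both Denr shRNAs did not overlap for 5 of 6 members, all but Cxcl1, where 19.1% of all genes separated in this way. In footprints Ccl2, Ccl8 and Ccl9 separated, 3 of 6, where 27.5% of all genes did. Nothing is read from these counts, since this contrast chose the genes.

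Neither control shRNA is meant to target a gene of these cells, and whether either silences other genes was not tested. The comparison between them shows how far the members vary without a Denr shRNA. In RNA 3 of 6 members passed, where 0.704% of all genes did. Ccl8 RNA was higher with Gfp by 1.53 (SE 0.161, adjusted p = 0.00507) and Ccl9 RNA by 1.22 (SE 0.171, adjusted p = 0.0195), 2.93-fold and 2.32-fold as ratios of means. Cxcl5 RNA was lower by 0.73 log2 units (adjusted p = 0.0813 by limma). Ccl7 (0.33, adjusted p = 0.421), Ccl2 (0.17, 0.698) and Cxcl1 (-0.57, 0.583) did not pass, and the Ccl2 value was 0.29 without scramble replicate 3 (0.627). The Ccl8 call was lost without Gfp replicate 2 (adjusted p = 0.109), and that of Ccl9 without scramble replicate 2 (0.112), Gfp replicate 1 (0.153) or Gfp replicate 2 (0.21). Of the 11 fits that leave out 1 lysate, 2 kept the Cxcl5 call, and the others, among them the 5 that leave out a control lysate, gave adjusted p up to 0.46.

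Footprints between the control shRNAs gave 3 calls of 6, where 8.48% of all genes passed. Ccl9 was higher with Gfp by 1.04 (adjusted p = 0.0015) and Ccl8 by 1.41 (SE 0.207, adjusted p = 0.00372), and all 11 fits that leave out 1 lysate kept both calls. Where a fit has a lone Gfp lysate, in RNA or footprints, its spread is assumed to be that of the other groups. Cxcl5 was lower by 0.94 log2 units (SE 0.238, adjusted p = 0.05), a call lost without scramble replicate 3 (0.114) or either Gfp lysate (0.16 and 0.228). Cxcl1 (-1.17, adjusted p = 0.220), Ccl7 (0.24, 0.204) and Ccl2 (0.21, 0.192) did not pass, though Ccl2 did without scramble replicate 3 (0.0917 by limma).

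**Figure D3:**
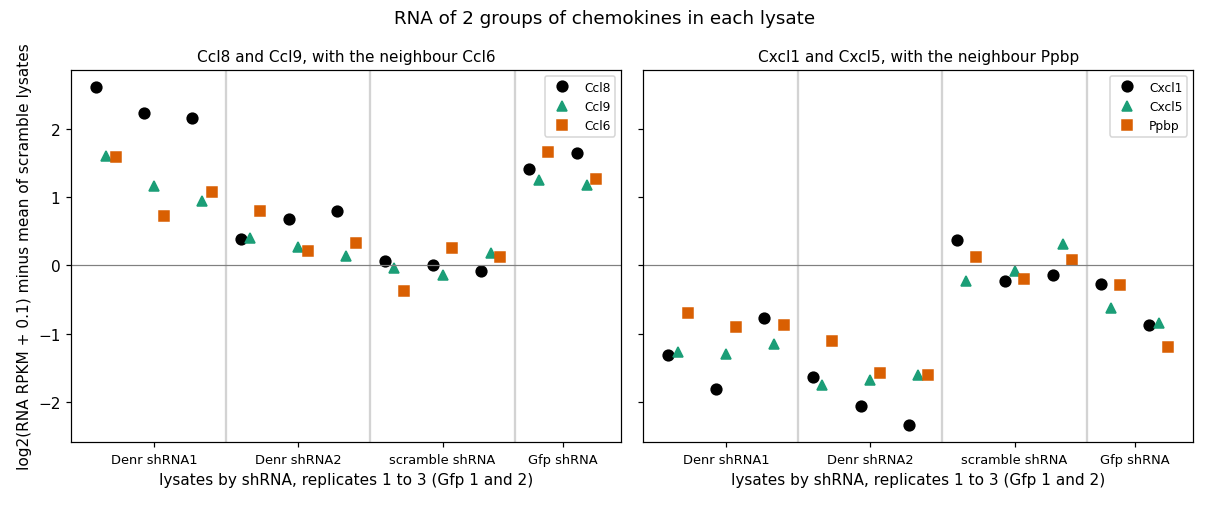
Log2(RNA RPKM + 0.1) of each lysate minus the mean of the scramble lysates, for Ccl8, Ccl9 and the neighbouring Ccl6 and for Cxcl1, Cxcl5 and the neighbouring Ppbp. In the mean, the first 3 genes are higher with shRNA1 and Gfp than with shRNA2 and scramble, and the other 3 are below scramble with both Denr shRNAs and also with Gfp.

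Across the 11 RNA-seq libraries 3 pairs of members had the highest correlations, an observation made after their values were seen. Pearson's r of log2 values was 0.916 for Ccl8 and Ccl9, 0.888 for Cxcl1 and Cxcl5 and 0.808 for Ccl2 and Ccl7. In footprints the values were 0.892, 0.836 and 0.517, the last of them below Ccl2 and Ccl9 (0.701), Ccl7 and Cxcl1 (0.573) and Ccl2 and Ccl8 (0.538). Ccl8 and Cxcl5 had r of -0.444 in RNA. These points share libraries and fall into 4 shRNA groups, so r describes the order of the groups.

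Translation efficiency (TE) is the log2 ratio of CDS footprints to CDS RNA of the same lysate. Ccl8 had a mean log2 TE of 1.41 over the 11 lysates, above 97.3% of genes, followed by Ccl7 at 1.19 (percentile 95.4), Ccl2 at 0.84 (90.0), Ccl9 at 0.68 (85.3) and Cxcl5 at 0.65 (84.2). Cxcl1 lay at -0.12 (48.1), near the median of all genes at -0.08. Most of these secreted ligands thus carried more footprints per RNA than the typical gene. The percentiles compare normalized ratios and are no count of ribosomes per molecule.

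No member passed in TE between knockdown and controls (0 of 6 by limma), where 0.475% of all genes did. At an unadjusted p under 0.05 there were 0 members, and 0 passed with an interaction term. The study's own TE test, Xtail on read counts, called more genes at the same FDR and was not repeated here. The differences were 0.28 for Ccl8 (SE 0.186, adjusted p = 0.920; 0.44 without scramble replicate 3, adjusted p = 0.622), 0.22 for Cxcl5 (SE 0.131, adjusted p = 0.893), 0.06 for Ccl2, 0.02 for Ccl9, -0.04 for Ccl7 and -0.45 for Cxcl1 (SE 0.405, adjusted p = 0.991). By group, the log2 TE of Ccl8 was 1.31 ± 0.20 with shRNA1, 1.76 ± 0.22 with shRNA2, 1.31 ± 0.54 with scramble (SD, n = 3 each) and 1.18 ± 0.07 with Gfp (n = 2). Ccl9, the member with upstream AUGs, had 0.69 ± 0.27 in the 6 knockdown lysates and 0.67 ± 0.18 in the 5 controls (SE of the difference 0.129, adjusted p = 0.999 by limma). The depth of Cxcl1, with as few as 4 footprint reads in a lysate, leaves its TE poorly determined.

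**Figure D4:**
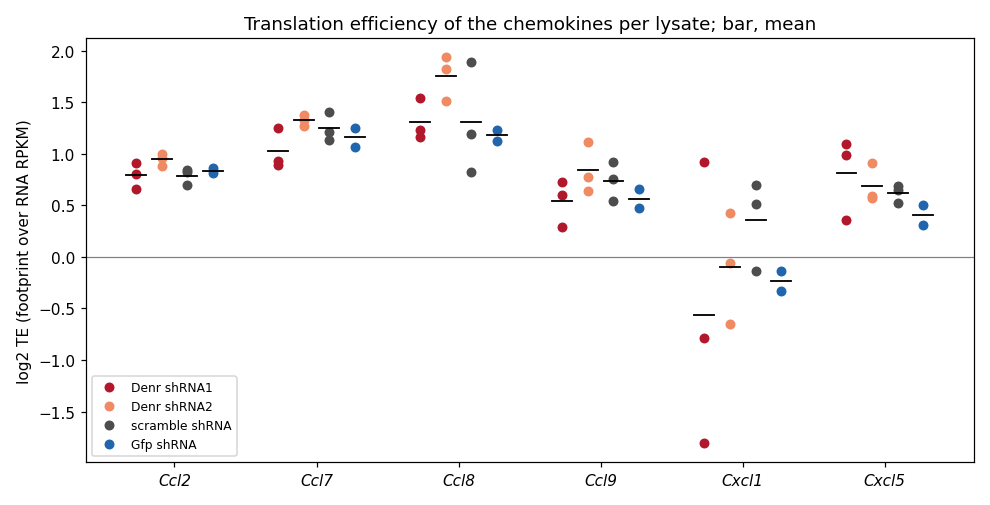
Log2 translation efficiency of the 6 chemokines in each lysate, coloured by shRNA, with the group mean as a bar. Ccl8 lies highest, with a mean of 1.41 over all lysates, and the lysates of Cxcl1 scatter most.

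Footprints on the 5′ UTR were few. Ccl2 had 98 to 300 per RPF-seq library and Ccl7 19 to 89, while Ccl8 had 0 to 14, Ccl9 3 to 20, Cxcl1 0 to 2 and Cxcl5 0 to 13. Relative 5′ UTR translation, the log2 ratio of 5′ UTR to CDS footprint RPKM, was tested for genes with at least 20 such reads in at least 9 libraries, which 2 of 6 members met. For Ccl2 it was -2.46 ± 0.40 in knockdown lysates (n = 6) and -2.96 ± 0.48 in controls (n = 5), a difference of 0.50 (SE 0.238, adjusted p = 0.152). For Ccl7 the difference was 0.35 (SE 0.252, adjusted p = 0.300 by limma), and 0.55 without scramble replicate 3 (0.144). The median difference of all 5175 genes tested was 0.33, and 18.1% of them passed. Neither member passed, also at an unadjusted p under 0.05 (0 of 2), though Ccl2 did without scramble replicate 2 (0.65, adjusted p = 0.0905). On Ccl9, whose 5′ UTR holds the 4 upstream AUGs printed above, the ratio was -4.87 ± 0.24 in knockdown lysates and -5.05 ± 0.40 in controls, at no more than 20 reads a library and without a test.

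Beyond the members, 5 of 31 other chemokine ligands and 1 of 23 receptors listed were among the genes of the files. Ackr3, an atypical receptor that scavenges chemokines, had 78.2 ± 2.82 RPKM of RNA with shRNA1, 94.8 ± 3.29 with shRNA2, 128 ± 7.96 with scramble and 105 ± 20.0 with Gfp. Its RNA fell in the knockdown by 0.45 (SE 0.106, adjusted p = 0.0465). Ackr3 footprints differed by -0.45 and did not pass by limma (SE 0.153, adjusted p = 0.101), though they did with voom. Knockdown and control lysates overlapped in both assays. Between the controls, Ackr3 footprints were lower with Gfp than with scramble by 0.47 (SE 0.144, adjusted p = 0.0933 by limma). Ppbp, the neighbour of Cxcl5 and a ligand of CXCR2, had mean RNA of 2.71, 1.76, 4.86 and 3.01 RPKM in the same order. Its footprints fell in the knockdown by 1.31 (SE 0.206, adjusted p = 0.00521), at 5 to 16 footprint reads in each knockdown lysate, and its RNA differed by -0.83 (adjusted p = 0.101 by limma).

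Ccl6, the neighbour of Ccl9, had RNA of 5.997 ± 1.87 RPKM with shRNA1, 3.64 ± 0.834 with shRNA2, 2.65 ± 0.594 with scramble and 7.42 ± 1.40 with Gfp. It was higher with Gfp than with scramble by 1.46 in RNA (SE 0.275, adjusted p = 0.0622) and 1.70 in footprints (SE 0.218, adjusted p = 0.00174). Ccl25 (8.94 to 11.6 RPKM of RNA), Cxcl10 (0.585 to 2.93) and Cx3cl1 (1.11 to 2.93) passed in neither assay between knockdown and controls. That Ccl6 and Ppbp resemble their neighbours in RNA was noticed after their values were seen. In footprints the ratio of Gfp to scramble was 0.972 for Ppbp and 0.509 for Cxcl5.

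Chemokine genes are classical targets of NF-κB signalling, and their mRNAs are short-lived, so lists of these regulators were examined in the same fit. Of all 10516 genes, 3.55% passed in RNA and 1697 had an unadjusted p under 0.05. In footprints 10.0% passed and 2477 had such a p. At these shares a count of 0 in a short list says little. Of 33 measured genes of NF-κB and its upstream signalling, 0 passed in RNA (8 at an unadjusted p under 0.05, 0 with voom). Their median change was 0.01 where that of all genes was 0.03. In footprints 4 of 33 passed, near the 10.0% of all genes: Tradd rose by 0.28, and Il1r1, Il1rap and Cyld fell by 0.41, 0.26 and 0.21, genes named after their values were seen. Of 10 regulators of chemokine mRNA decay 0 passed in RNA (0 at an unadjusted p under 0.05, 0 with voom) and 0 in footprints (1 and 0). Of 6 other secreted NF-κB targets 0 passed in RNA (1 and 0) and 1 in footprints, Il33. Of 15 interferon response genes, Ifnar1, a subunit of the interferon receptor, rose in RNA by 0.41 (SE 0.0627, adjusted p = 0.00677 by limma). In footprints 0 of the 15 passed (3 at an unadjusted p under 0.05, 0 with voom). The TE of Ifnar1, its footprints per RNA, fell by 0.39 (SE 0.0844, adjusted p = 0.0994 by limma), where 0.475% of all genes passed. With the interaction term 0 of the 15 passed in TE. Of 4 proteases that trim chemokines 0 passed in RNA (1 and 0) or in footprints (2 and 0).

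Set apart by shRNA, some of these lists gave other counts. Of the NF-κB genes 4 of 33 passed in RNA with shRNA1 (2 higher, 2 lower), among them Tnfaip3, an inhibitor of the pathway, which rose by 1.06 (adjusted p = 0.0471), and 0 of 33 with shRNA2 (3 at an unadjusted p under 0.05, 1 with voom). Of all genes 6.13% passed in RNA with shRNA1 and 6.51% with shRNA2, and 1914 had an unadjusted p under 0.05 with shRNA2. In footprints 8 of 33 passed with shRNA1 (4 higher, 4 lower) and 6 of 33 with shRNA2 (1 higher, 5 lower), against 17.7% and 19.9% of all genes. Mmp2 and Mmp14, 2 of the 4 proteases, were higher with shRNA1 in RNA (0.51 and 0.31) and footprints (0.52 and 0.38). With shRNA2 0 of 4 proteases passed in RNA (1 at an unadjusted p under 0.05, 0 with voom), and 4 of 4 were higher in footprints, by 0.17 to 0.24. Mmp2 and Mmp14 were also higher with Gfp than with scramble in both assays. Of the 15 interferon response genes, 2 were higher with shRNA1 in RNA and 3 in footprints (8 and 5 at an unadjusted p under 0.05). With shRNA2 1 was higher in RNA and 1 lower in footprints. With Gfp against scramble 0 passed in RNA (5 at an unadjusted p under 0.05), and 4 were higher in footprints. Of all genes 0.704% and 8.48% passed there. The part of these genes in the chemokine values was not tested.

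The genes whose RNA was most like that of each member were found by Pearson's r of log2(RPKM + 0.1) over the 11 RNA-seq libraries, among 10345 genes with a mean of at least 1 RPKM. Most like Ccl8 were Tnr (r = 0.97), Mylk (0.955), Prss23 (0.943), Egfr (0.937) and Cwc25 (0.936). Tnr, for instance, had mean RNA of 3.11, 1.86, 1.37 and 2.63 RPKM with shRNA1, shRNA2, scramble and Gfp. Most like Ccl9 were Apod (0.97) and Mgst1 (0.965), with Apod at 6.55, 3.31, 2.02 and 5.98 RPKM. Ccl2 was most like Lrrc57 (0.922) and Hoxb9 (0.917), Ccl7 most like Lrch3 (0.935) and Thumpd2 (0.89). Cxcl1 was most like Dusp10 (0.96) and Acsl5 (0.95), and Cxcl5 most like Rtn4 (0.98) and Psmd12 (0.968). Rtn4 had 190, 172, 246 and 215 RPKM, the order of Cxcl5 with smaller differences. These r values describe the order of the 4 shRNA groups and carry no test.

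The label of the cells was checked against markers. Of 14 fibroblast markers 11 were measured, with summed RNA of 7430 to 9680 RPKM over all lysates. Between knockdown and controls 0 of these 11 passed in RNA (2 at an unadjusted p under 0.05, 0 with voom) or in footprints (5 and 0). Of all genes 3.55% and 10.0% passed in this comparison. With shRNA1 3 of 11 were higher in RNA, and 4 were higher and 2 lower in footprints, where 6.13% and 17.7% of all genes passed. With shRNA2 Pdgfrb alone passed in either assay, where 6.51% and 19.9% of all genes did. With Gfp against scramble 2 of 11 were higher in RNA and 5 in footprints, where 0.704% and 8.48% of all genes passed. The part of these markers in the chemokine values was not tested. Of 12 macrophage and leukocyte markers, cells that make several of these chemokines, only Lyz2 and Cd14 had values here. Their summed RNA was 49.2 to 70.4 RPKM with shRNA1, 56.1 in all lysates with shRNA2, 41.7 to 46.9 with scramble and 47.1 to 61.1 with Gfp. Their RNA did not pass (0 of 2, with 1 at an unadjusted p under 0.05 and 0 with voom), but in footprints Cd14 rose in the knockdown by 0.38 (adjusted p = 0.0303) and Lyz2 by 0.22 (adjusted p = 0.0824 by limma). Whether these genes have a part in the chemokine values was not tested. The epithelial marker Cdh1 (2.74 to 4.05 RPKM) and the endothelial marker Cdh5 (0.544 to 1.1) were low in all lysates.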

How the data were processed

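Per the labels and the study's methods, adapters were removed with cutadapt, reads were aligned with Bowtie2 2.2.1 and TopHat2 2.0.11 to mouse GRCm38 (Ensembl 84), and the authors deposited RPKM of CDS and 5′ UTR per gene after upper-quartile normalization in edgeR, done for each assay by itself, with weakly expressed genes removed. Each library has 1 table of 10516 genes. Whole reads were recovered from the RPKM steps (231349 of 231349 CDS and 206256 of 206259 5′ UTR values above 0 whole within 0.01), and served for depth, coverage and a voom alternative.

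Values were tested as log2(RPKM + 0.1) with limma 3.58.1 in R 4.3.3 (eBayes with trend, two-sided, Benjamini-Hochberg over all genes, FDR 0.1), 6 knockdown against 5 control lysates, or 4 group means for single shRNAs. No test was adjusted over the members alone. The members and lists were chosen with earlier results of these data known. Named besides were Denr, the listed chemokine ligands and receptors, up to 3 called genes of each other list, and the genes most like each member. Alternatives were the pseudocount, an RPKM filter, median centring, eBayes without trend, the replicate block, leaving out each lysate, and scramble alone. Gfp alone was added after seeing the data. The code was tested on simulated data. Gene models were GENCODE vM21 and promoters RefSeq GRCm38.p6. Python 3.11.15 with pandas 2.3.3 was used.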

Additional observations from a re-analysis of the deposited data

Results flagged for a closer look

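Ccl7 footprints of scramble replicate 1 (8.94 on the log2 scale, 491 RPKM) lay far below those of the other 4 control lysates. Its gap to the nearest control was 0.72 of the range of the controls. Of 36 groups examined for such a value this was the only 1, and chance flags about 1 in 20.

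Ccl9 RNA of every Denr shRNA1 lysate lay above the mean of the controls and that of every Denr shRNA2 lysate below it, with mean log2 differences of 0.7474 and -0.2159. Against scramble alone the shRNA2 value was 0.27. The difference between these effects was not tested, since the contrast of the Denr shRNAs chose the genes.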

How the results depend on the processing

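Of the counts of members passing in each comparison, 186 recomputed values stayed within 1.5 times the reported count and 10 moved. Leaving out 1 lysate gave 2 to 4 members in footprints between knockdown and controls, 0 to 1 in relative 5′ UTR translation, and 0 to 3 in RNA between the control shRNAs. With Gfp alone as control, the number passing was 0 in RNA and 1 in footprints for the pooled knockdown, and 0 in RNA and 1 in footprints for shRNA1, and Ccl9 footprints with shRNA1 turned from 0.62 to -0.00796. Among values of single members, 952 were counted as unchanged, 48 lost the call and 15 gained it, and the cause was not tested. Values without a main call that changed sign are among the 952. Against Gfp alone, for instance, Ccl8 RNA in the pooled knockdown was -0.05 where the main value was 0.87. Ccl9 RNA was likewise -0.46 where the main value was 0.27. With voom, Cxcl5 RNA between the control shRNAs lost its call (adjusted p = 0.149). Counts over all genes moved more. With scramble alone as control 940 RNAs and 2651 footprint values passed between knockdown and controls, against 373 and 1053 with both controls, and with Gfp alone 18 and 92. For shRNA1 against Gfp alone the counts were 65 and 631. Relative 5′ UTR translation went from 939 genes to 4 when libraries were centred on their medians and to 131 with a filter on 5′ UTR RPKM.

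Same-numbered lysates correlated at -0.08 to 0.78 in RNA over 15 pairs, 10 of them over 0.1, and 7 of 11 lysates correlated best with their own number. In footprints 13 of 15 pairs were over 0.1 and in TE 10 of 15, with 9 of 11 lysates best with their own number in each. The median r was 0.418 in RNA, 0.153 in footprints and 0.205 in TE, so lysates of the same number tended to vary together. What the numbers stand for is not given in the labels. The main tests leave them out, so their p-values do not take this likeness into account. With the replicate number as a block, 3 members passed in RNA and 4 in footprints between knockdown and controls, 4 and 4 with shRNA1, 4 and 3 with shRNA2, 3 and 3 between the control shRNAs, and 0 in TE and in relative 5′ UTR translation. Over all 10516 genes the block took the RNA count from 373 to 1003 and that of footprints from 1053 to 1940. It gave 1868 and 3150 genes with shRNA1, 1682 and 3357 with shRNA2, and 157 and 1437 between the control shRNAs. The RNA calls gained with the block in limma were Ccl7 in the pooled knockdown (-0.39, adjusted p = 0.0794) and with shRNA1 (-0.27, 0.0892). Ccl2 RNA with shRNA2 was gained too (-0.31, 0.0878). Depth limits what can be said of Cxcl1 and of 5′ UTR footprints of all members but Ccl2 and Ccl7.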

Other observations

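Il33, which encodes an alarmin cytokine released by stromal cells, showed the order of Ccl8, a gene singled out after its values were seen. Its RNA was 7.62 ± 2.0 RPKM with shRNA1, 3.26 ± 0.499 with shRNA2, 0.837 ± 0.5 with scramble (SD, n = 3 each) and 4.75 ± 1.21 with Gfp (n = 2), with no overlap of neighbouring groups in footprints, which were 11.97 to 14.5, 5.52 to 6.52, 0.889 to 1.17 and 7.83 to 8.72 RPKM. Il33 RNA was higher with Gfp than with scramble by 2.48 (SE 0.363, adjusted p = 0.0212 by limma), at 6 to 9 reads in the scramble lysates. It rose by 2.15 with shRNA1 against the pooled controls (adjusted p = 0.00339) and by 0.97 with shRNA2 (adjusted p = 0.0983).

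Of the listed genes, 4 singled out after their values were seen were higher with Gfp than with scramble. RNA of Col3a1, a fibrillar collagen, was 331 ± 18.4 RPKM with scramble and 591 ± 5.17 with Gfp (0.84, adjusted p = 0.0352), and that of the gelatinase Mmp2 138 ± 4.43 and 217 ± 5.94 (0.65, adjusted p = 0.0542). Mmp14, which activates pro-MMP2, was higher with Gfp by 0.55 (adjusted p = 0.0542) and the growth factor receptor Pdgfrb by 0.62 (adjusted p = 0.0707 by limma). With shRNA1, RNA of Col3a1 was 591 ± 114 RPKM and that of Mmp2 238 ± 37.5, and with shRNA2 422 ± 19.3 and 191 ± 2.9.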
